A study of Mus musculus with 4 samples.

Results

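Cardiac transcription factors were examined in ventricles of mice lacking ERRα and of wild-type mice. The genes were Gata4, Gata6, Hand2, Hopx, Mef2a, Mef2c, Mef2d, Nkx2-5, Tbx5 and Srf, and every probe set annotated to exactly 1 of them was taken. Of these 10 genes, 8 had a probe set, 14 probe sets in all out of 12488 on the array. No probe set was listed for Tbx5 or Srf, so neither was analysed here. The knockout group (KO) was ERRα knockout ventricle and the wild-type group (WT) was ventricle carrying ERRα, both labelled as baseline, with 2 arrays each. The labels give no strain, sex, age or treatment, and do not say how the allele was made or whether replicates were separate animals. The p-values therefore measure the spread between these arrays, which may be technical. ERRα, encoded by Esrra, is a nuclear receptor that controls energy metabolism in mitochondria, and the comparison asked which transcripts differ in the unstressed heart without it.

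The factors bind DNA through several kinds of domain and act together on shared enhancers of heart muscle genes. MEF2A, MEF2C, MEF2D and SRF are MADS-box proteins, GATA4 and GATA6 are zinc-finger proteins, NKX2-5 is a homeodomain protein, HAND2 is a basic helix-loop-helix protein and TBX5 is a T-box protein. HOPX is a small homeodomain protein that does not bind DNA itself and restrains transcription driven by SRF. They are known for building the embryonic heart, and in the adult ventricle MEF2, GATA4 and SRF also take part in the gene program of hypertrophic growth.

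The arrays behaved as 4 similar samples, with Spearman correlations between 0.911 and 0.923 over the probe sets tested. Values are scaled signals on a linear scale, and the number of arrays limits the precision. Esrra checked the labels. Its probe set 102145_f_at gave 83.6 and 55.2 on the KO arrays, against 2688 and 2828 on the WT arrays, and fell by 4.65 on the log2 scale (limma adjusted p = 0.0441). Both KO arrays lay below the floor of 110 set on low signals, so the floor limits the size of this fall, and the call was lost when any array was left out. On 103964_at, its other probe set, Esrra gave 922 and 1050 in KO and 8598 and 8039 in WT (log2 -3.08, no call, limma adjusted p = 0.179). All 7 measured markers of ventricular cardiomyocytes, out of 9 listed, gave high signal on every array, among them Myl2, the ventricular light chain, at 154809 or above. The ratio of 5' to 3' signal of β-actin was 0.694 and 0.813 on the KO arrays, against 0.966 and 0.909 on the WT arrays. That of Gapdh was near 1 on every array, at 0.994 and 0.968 in KO and 1.04 and 1.01 in WT.

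No cardiac transcription factor passed the test. Of the 14 probe sets, 12 had a mean signal of at least 350.6 and were tested, and these covered all 8 measured genes. With limma, 0 of the 12 had an adjusted p under 0.05, where 0.0134% of all 7453 tested probe sets did. At an unadjusted p under 0.05 there was 1, Mef2a, where 6.79% of all tested probe sets lay. The KO arrays lay above the WT arrays without overlap for 4 of the 12, where 20.7% of all tested probe sets did, and below them for 1, where 16.7% did. With a difference of at least 1.5-fold, 1 of the 12, Mef2a, was higher without overlap and 0 were lower, where 6.84% and 4.2% of all tested probe sets were. Means were higher in KO for 10 of the 12 and lower for 2, with a median log2 difference of 0.25, where the median over all tested probe sets was 0.03. With 1 probe set per gene, that of highest mean, 6 of 8 genes had a higher mean in KO, where 2911 of all 5653 tested genes did. The median of the 8 genes was 0.15. Leaving out KO replicate 2 left 5 of the 12 probe sets higher, with a median of -0.04, and 3 of the 8 genes, with a median of -0.09.

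**Figure D1:**
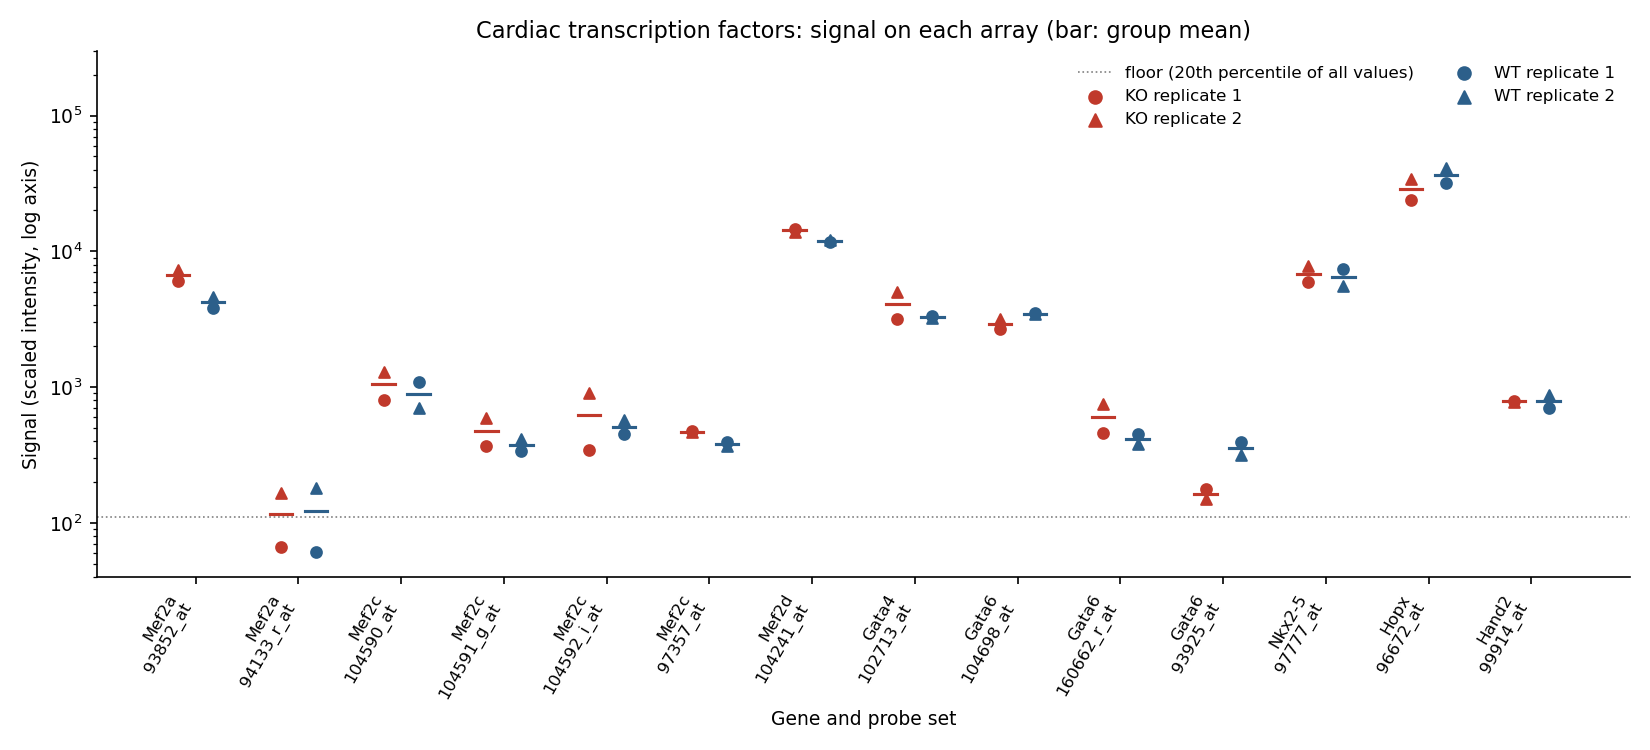
Signal (scaled intensity, log axis) of each of the 14 probe sets on each array, KO in red to the left of WT in blue, circles for replicate 1 and triangles for replicate 2, with a bar at each group mean and a dotted line at the floor of 110. Mef2a 93852_at lies at 6097 and 7276 in KO above 3799 and 4635 in WT, and KO replicate 2 is the highest array for 7 of the 12 tested probe sets. Levels of different probe sets cannot be compared with each other.

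Among the 12 tested probe sets, Mef2a 93852_at had the lowest unadjusted p, whereas with no filter Gata6 93925_at (0.0130), Mef2c 97357_at (0.0197) and Mef2d (0.0221) had lower limma unadjusted p-values than Mef2a (0.0393). Mef2a encodes a main MEF2 factor of the heart after birth, whose loss in mice is known to disturb cardiac mitochondria. Probe set 93852_at gave 6097 and 7276 in KO ventricles, against 3799 and 4635 in WT ventricles. Both KO arrays lay above both WT arrays. The means were 6686 ± 834 in KO and 4217 ± 591 in WT (SD, n = 2 each), a log2 difference of 0.67 (SE 0.23, limma unadjusted p = 0.0387, adjusted p = 0.705), or 1.59-fold with a 95% interval of 1.04- to 2.43-fold before any adjustment. The difference stayed above 0 under all 14 alternative settings, from 0.52 to 0.81. Without overlap, leaving out 1 array could not turn its sign, and changes of floor, filter, prior or block left it at 0.67. It passed under none of the settings (limma adjusted p of 0.547 or above with all 4 arrays). The second Mef2a probe set, 94133_r_at, was below the filter on low signal, with 66.5 and 165 in KO and 60.9 and 182 in WT, and gives no reading of the gene.

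Mef2d, the third widely expressed member of the family, which is known as a transducer of stress signals in the adult heart, had a KO mean 1.21 times its WT mean. Its probe set 104241_at gave 14721 and 13833 in KO, against 11655 and 12031 in WT. Both KO arrays were higher, and the arrays of each genotype lay close together. The log2 difference was 0.27 (SE 0.20, limma adjusted p = 0.829), with a 95% interval from 0.841- to 1.73-fold. It ranged from 0.22 to 0.32 over the 14 alternatives, all above 0, though without overlap leaving out 1 array could not turn its sign.

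Mef2c, which is required for formation of the embryonic right ventricle, had 4 probe sets, and 3 of them carry consecutive numbers (104590_at, 104591_g_at and 104592_i_at). The first and second of these 3 are annotated to the same sequence record, so they are not independent readings. Probe set 97357_at gave 477 and 466 in KO, against 397 and 370 in WT, with no overlap (log2 0.30, SE 0.20, limma adjusted p = 0.820). Probe set 104590_at gave 800 and 1298 in KO and 1090 and 698 in WT. The groups overlapped (log2 0.23, SE 0.37, limma adjusted p = 0.921). The _g_at and _i_at probe sets gave 369 and 591, and 345 and 900, in KO, against 337 and 415, and 455 and 571, in WT, both with overlap. KO replicate 2 was the highest array on these 3, and without it their log2 differences were -0.12, -0.02 and -0.56. Probe set 97357_at did not follow KO replicate 2 and stayed between 0.25 and 0.35 when each array was left out.

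Across the family, all 6 tested MEF2 probe sets had a higher mean in KO, also after quantile normalization and after median scaling. Of these 6, 4 are of Mef2c alone, so they are not 6 independent readings. Over all genes, 2911 of 5653 tested had a higher mean in KO. Without KO replicate 2, 3 of the 6 were higher and 3 lower, and without either WT array 5 were higher and 1 lower. Mef2b, a MEF2 gene outside the 10, gave 2169 and 2312 in KO and 2041 and 2009 in WT (log2 0.14, SE 0.20, limma adjusted p = 0.911).

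**Figure D2:**
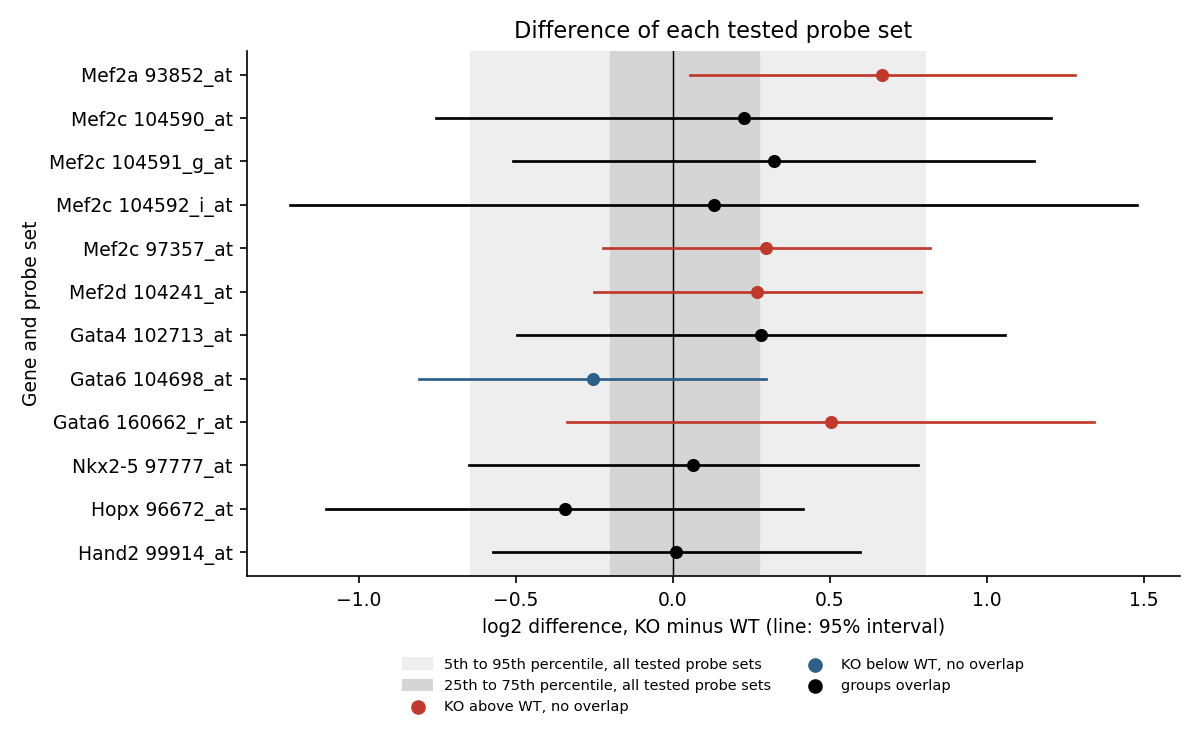
The log2 difference (KO minus WT) of each of the 12 tested probe sets with its 95% interval, over bands for the spread of differences among all 7453 tested probe sets. Mef2a at 0.67 is the one interval that does not reach 0, and all 12 points lie between the 5th and 95th percentiles of all tested probe sets, -0.64 and 0.80.

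The 250 bases upstream of the RefSeq starts (assembly GRCm38.p6, written 5' to 3' on the gene's strand) were searched on both strands for the site of the ERR family, TNAAGGTCA, and for AGGTCA, the core that many nuclear receptors bind. Windows of Hand2, Hopx, Mef2a, Mef2c, Mef2d, Nkx2-5 and Srf were searched, and none of Gata4, Gata6 or Tbx5. The Mef2a and Mef2d windows are shown because these 2 genes were higher in KO without overlap. Both lie inside the RefSeq spans of their genes, as does the Nkx2-5 window, so the outermost start of each of these genes was not searched. Of the Mef2c windows, the 2 that hold AGGTCA are shown, and both lie inside the RefSeq span of the gene. Capitals mark matches to AGGTCA and, in the first Mef2c window, 1 match to the T-box core AGGTGT. Windows without a match are all in lower case.
Mef2a window, - strand, chr7:67372859-67373108: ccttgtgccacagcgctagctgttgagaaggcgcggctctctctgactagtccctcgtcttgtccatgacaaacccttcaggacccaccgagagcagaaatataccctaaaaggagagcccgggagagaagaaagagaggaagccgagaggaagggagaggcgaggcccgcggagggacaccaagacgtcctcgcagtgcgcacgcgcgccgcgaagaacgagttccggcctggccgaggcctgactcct
Mef2d window, + strand, chr3:88142122-88142371: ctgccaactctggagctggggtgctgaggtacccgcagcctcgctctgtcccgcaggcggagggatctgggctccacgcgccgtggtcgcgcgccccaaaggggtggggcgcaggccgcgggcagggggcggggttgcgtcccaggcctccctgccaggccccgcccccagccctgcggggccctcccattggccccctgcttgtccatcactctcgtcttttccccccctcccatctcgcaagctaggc
Mef2c window, + strand, chr13:83523406-83523655: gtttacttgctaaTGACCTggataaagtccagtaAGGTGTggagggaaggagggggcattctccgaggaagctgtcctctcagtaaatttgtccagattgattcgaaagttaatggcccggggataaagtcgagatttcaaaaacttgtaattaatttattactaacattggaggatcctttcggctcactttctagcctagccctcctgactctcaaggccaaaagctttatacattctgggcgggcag
Mef2c window, + strand, chr13:83573357-83573606: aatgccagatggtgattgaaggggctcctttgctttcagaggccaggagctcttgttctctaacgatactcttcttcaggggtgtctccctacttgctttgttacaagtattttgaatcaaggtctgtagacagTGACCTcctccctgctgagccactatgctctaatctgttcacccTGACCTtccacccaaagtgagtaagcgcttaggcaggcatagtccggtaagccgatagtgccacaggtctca
In these 4 windows TNAAGGTCA was absent, and 0 of the 10 windows of the 7 genes searched held it, where 1.14% of all 32817 windows did. AGGTCA lay in 2 of the 10 windows, both of Mef2c, where 14% of all windows held it. The Mef2c matches, read as TGACCT, began 237 bases upstream of 1 start and 116 and 72 bases upstream of another. The GATA site AGATAA lay in 1 window, that of Hand2, where 9.99% of all windows held it. The CArG box, the site of SRF, lay in 2 of the 10 windows, those of 1 Hopx start and of Srf, which held it at 82 and 62 bases upstream, where 1.47% of all windows held one. The MEF2 site lay in 0 of the 10, where 0.509% of all windows held it, and the NKX2-5 site TNAAGTG in 0, where 10.1% did. AGGTGT lay in 1 of the 10, where 11.8% did.

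No GATA probe set passed. Gata4 encodes the zinc-finger factor that activates natriuretic peptide and myosin genes and is needed for the hypertrophic response. Its probe set 102713_at gave 3177 and 5033 in KO, against 3341 and 3247 in WT. KO replicate 2 stood above the other 3 arrays and KO replicate 1 just below them. The log2 difference was 0.28 (SE 0.29, limma adjusted p = 0.870, 95% interval 0.709- to 2.08-fold), and without KO replicate 2 it was -0.05.

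Gata6 encodes a factor that shares much of its cardiac role with GATA4 and is also made in vascular smooth muscle, and its 3 probe sets did not point one way. Probe set 104698_at gave 2691 and 3164 in KO, against 3529 and 3435 in WT, lower without overlap (log2 -0.26, SE 0.21, limma adjusted p = 0.837). Probe set 160662_r_at gave 458 and 752 in KO, against 451 and 380 in WT, higher without overlap (log2 0.50, SE 0.32, limma adjusted p = 0.816). The third, 93925_at, averaged 259 over the 4 arrays and was not tested, with 177 and 150 in KO and 395 and 315 in WT. Here both KO arrays lay well below both WT arrays. In the fit without a filter it had a log2 difference of -1.12 (SE 0.18, limma unadjusted p = 0.0130, adjusted p = 0.414). The suffix _r_at marks a probe set designed with some selection rules relaxed, and the 3 are annotated to different sequence records.

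The homeodomain genes overlapped between genotypes. Nkx2-5, the partner of GATA4 and TBX5 on atrial natriuretic peptide and conduction genes, gave 5903 and 7740 in KO, against 7446 and 5602 in WT on probe set 97777_at. Each genotype had 1 higher and 1 lower array, in nearly the same places, and the groups overlapped. The log2 difference was 0.07 (SE 0.27, limma adjusted p = 0.964), with a 95% interval from 0.638- to 1.72-fold. Hopx gave 23845 and 34113 in KO, against 31781 and 41262 in WT on probe set 96672_at. The lowest array was a KO array and the highest a WT array, with the other two between them in overlapping order. The log2 difference was -0.34 (SE 0.29, limma adjusted p = 0.837), and it stayed below 0 under all 14 alternatives, from -0.60 to -0.09.

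Hand2, a basic helix-loop-helix factor required for the embryonic right ventricle, had the smallest difference of the 12 tested probe sets. Probe set 99914_at gave 792 and 785 in KO, against 701 and 874 in WT. The KO arrays lay between the WT arrays. The log2 difference was 0.01 (SE 0.22, limma adjusted p = 0.994), with a 95% interval from 0.672- to 1.51-fold, and its sign changed with the scaling, to -0.05 after quantile normalization and -0.03 after median scaling.

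The KO replicates differed from each other on these probe sets. KO replicate 2 was above KO replicate 1 for 9 of the 12 tested probe sets, with a median log2 difference of 0.45 between them. It was the highest of the 4 arrays for 7 of the 12, where 27.3% of all tested probe sets had their highest value on it. The median size of the difference between KO replicates was 0.45 for these 12 and 0.28 for all tested probe sets, and between WT replicates 0.29 and 0.28. The median size of the KO minus WT difference was 0.27 for the 12 and 0.23 for all, and as a difference of means it is the smaller kind of value even where no transcript differs. KO replicate 1 had the lowest summed signal of the 7 measured ventricular cardiomyocyte markers, 822376, against 985751 on KO replicate 2 and 1003500 and 986001 on the WT arrays. The part of this in the values of KO replicate 1 was not tested.

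**Figure D3:**
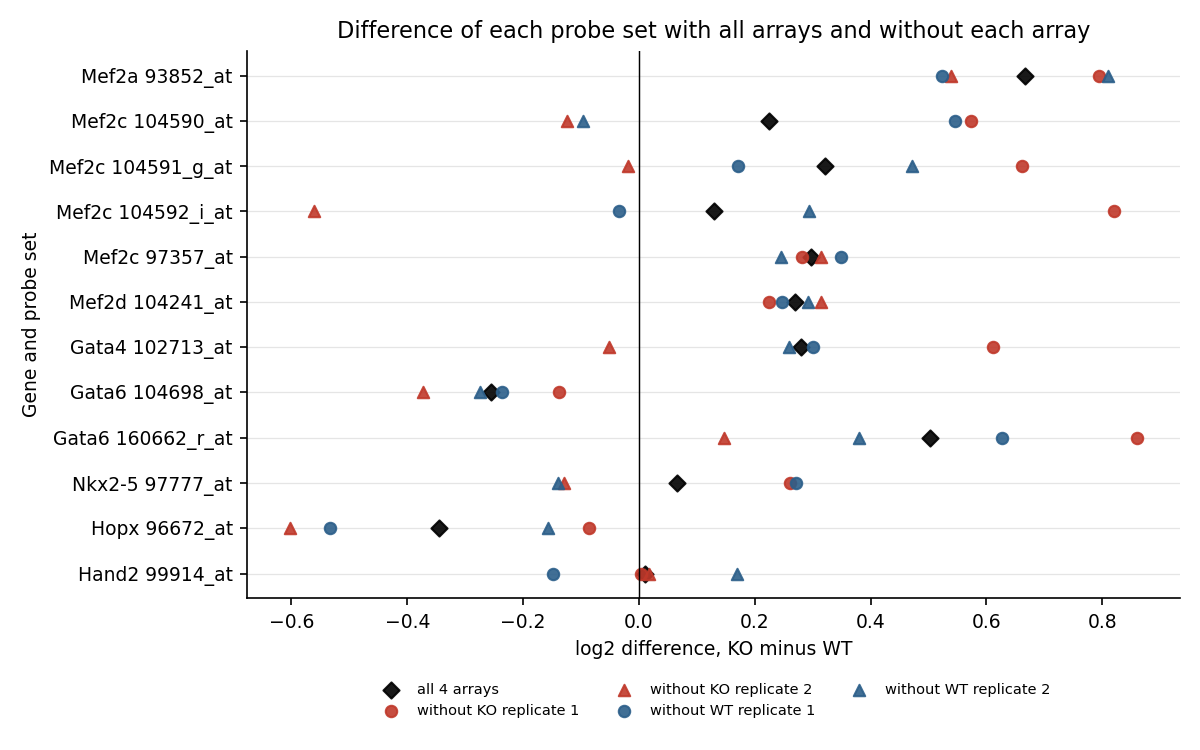
The log2 difference (KO minus WT) of each tested probe set with all 4 arrays (black diamonds) and with each array left out (red for a KO array, blue for a WT array, circles for replicate 1, triangles for replicate 2). Mef2a 93852_at, Mef2c 97357_at, Mef2d and Gata6 160662_r_at stay above 0, Hopx and Gata6 104698_at stay below 0, and the others cross it, as with Mef2c 104592_i_at from -0.56 to 0.82. Of those that keep their side, all but Hopx have groups without overlap, where leaving out an array cannot turn the sign.

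Partners and cofactors of these factors gave no call either. Of 48 genes listed, 33 were measured and 25 tested, and 0 passed (limma, 0% of all 5653 tested genes passed with 1 probe set each), nor did any have an unadjusted p under 0.05, where 6.51% of tested genes did. Means were higher in KO for 9 and lower for 16, with a median log2 difference of -0.11, where the median over all tested genes was 0.01. At least 1.5-fold without overlap, 1 was higher and 2 were lower, where 6.23% and 4.19% of tested genes were. Smyd1, a muscle methyltransferase that lies downstream of MEF2C, gave 11133 and 5654 in KO, against 14987 and 16050 in WT (log2 -0.97, SE 0.38, limma adjusted p = 0.744). Both KO arrays were lower than both WT arrays. Nfatc1 and Nfatc3, which encode calcineurin-activated factors of the family that binds GATA4, gave 591 and 265, and 656 and 826, in KO, against 638 and 639, and 622 and 514, in WT (log2 -0.69 and 0.38). Pias1, a SUMO ligase, gave 641 and 690 in KO and 231 and 588 in WT (log2 0.85, SE 0.49). The median of the list ran from -0.12 to -0.014 when each array was left out, nearest 0 without WT replicate 1.

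The targets known for GATA4, NKX2-5 and TBX5 were divided. Of 30 genes listed, 25 were measured and 24 tested, with 0 past the threshold, 2 at an unadjusted p under 0.05 (6.51% of all tested genes), 11 higher and 13 lower in mean, and a median of -0.05. The median was 0.016 after quantile normalization and ran from -0.15, without KO replicate 2, to 0.052, without KO replicate 1. At least 1.5-fold without overlap, 2 were higher and 1 lower, where 6.23% and 4.19% of all tested genes were, so these counts lie near the background. Nppa, the atrial natriuretic peptide, gave 12669 and 9603 in KO, against 7980 and 5605 in WT (log2 0.72, SE 0.29, limma adjusted p = 0.744). Myl7, the atrial light chain, gave 2380 and 3373 in KO, against 1572 and 1707 in WT (log2 0.79, SE 0.26, limma adjusted p = 0.694). Both genes also mark atrial muscle. Of the 7 atrial markers tested, 6 differed at least 1.5-fold without overlap. Nppa, Myl7, Stard10, Myl4 and Dkk3 were higher in KO and Clu lower, where 6.23% and 4.19% of all tested genes were. The median log2 difference of the 7 was 0.72, though none of the 7 passed (lowest limma adjusted p = 0.694). The 9 measured markers summed to 33480 and 34538 in KO and 37226 and 30656 in WT, a sum in which Clu gave 9841 and 11055 in KO, against 22402 and 18647 in WT. Sln and Bmp10, the 2 markers not tested, had low signal, below the floor of 110 on 1 and 3 arrays. Sln gave 148 and 411 in KO and 111 and 80 in WT, without overlap. Bmp10 gave 42.2 and 275 in KO and 20.9 and 71.3 in WT, with overlap, and gives no reading of the gene. The part of atrial tissue in these values was not tested. Edn1, endothelin 1, gave 325 and 262 in KO, against 445 and 561 in WT (log2 -0.77, SE 0.25), and Ccnd2, cyclin D2, gave 1602 and 1326 in KO, against 1110 and 940 in WT (log2 0.51, SE 0.23). Nppb, the B-type natriuretic peptide, gave 20537 and 18470 in KO and 87183 and 14065 in WT, where WT replicate 1 alone was high. It was singled out after its values were seen.

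The targets known for MEF2 were mostly lower in mean. Of 30 genes listed, 21 were measured and 20 tested, with 0 past the threshold and 2 at an unadjusted p under 0.05 (6.51% of all tested genes). Means were higher in KO for 4 and lower for 16, where 2742 of all 5653 tested genes were lower, with a median of -0.13. At least 1.5-fold without overlap, 1 was higher and 1 lower, near the 6.23% and 4.19% of all tested genes. The median ranged from -0.25 to -0.02 when each array was left out, nearest 0 without KO replicate 1, and was -0.05 after quantile normalization. Several of the genes are also cardiomyocyte genes. The 7 measured ventricular cardiomyocyte markers had a median of -0.16, from -0.27 to -0.015 when each array was left out, also nearest 0 without KO replicate 1, and their part in the values of the MEF2 targets was not tested. Hrc, a calcium-binding protein of the sarcoplasmic reticulum, gave 14101 and 14689 in KO, against 33601 and 28438 in WT (log2 -1.10, SE 0.21, limma adjusted p = 0.694). Ppargc1a, the coactivator PGC-1α through which ERRα acts, gave 793 and 589 in KO, against 368 and 435 in WT (log2 0.77, SE 0.25, limma adjusted p = 0.694). The differences of Des, the muscle intermediate filament desmin, and of Jun, a subunit of AP-1, were small, at log2 -0.28 and -0.27.

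Srf itself was not measured, and the genes known as its targets spread widely in both directions. Of 36 genes listed, 32 were measured and 27 tested, with 0 past the threshold and 6 at an unadjusted p under 0.05, where 6.51% of all tested genes lay. Means were higher for 13 and lower for 14, with a median of -0.00442, and at least 1.5-fold without overlap 5 were higher and 2 lower, where 6.23% and 4.19% of all tested genes were. Acta2, smooth muscle α-actin, gave 18753 and 10916 in KO, against 4135 and 2909 in WT (log2 2.04, SE 0.36, limma adjusted p = 0.656). Fos, an immediate early gene, gave 870 and 524 in KO, against 153 and 213 in WT (log2 1.90, SE 0.35, limma adjusted p = 0.656). Acta1, skeletal α-actin, ran the other way, with 19417 and 18373 in KO, against 48309 and 31096 in WT (log2 -1.04, SE 0.29, limma adjusted p = 0.694). Myl9, a smooth muscle light chain, gave 2500 and 3147 in KO, against 1378 and 1560 in WT (log2 0.94, SE 0.23, limma adjusted p = 0.694). The lists were drawn up with earlier results of these data known, so Acta2, Fos and Acta1 give no independent evidence of direction.

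**Figure D4:**
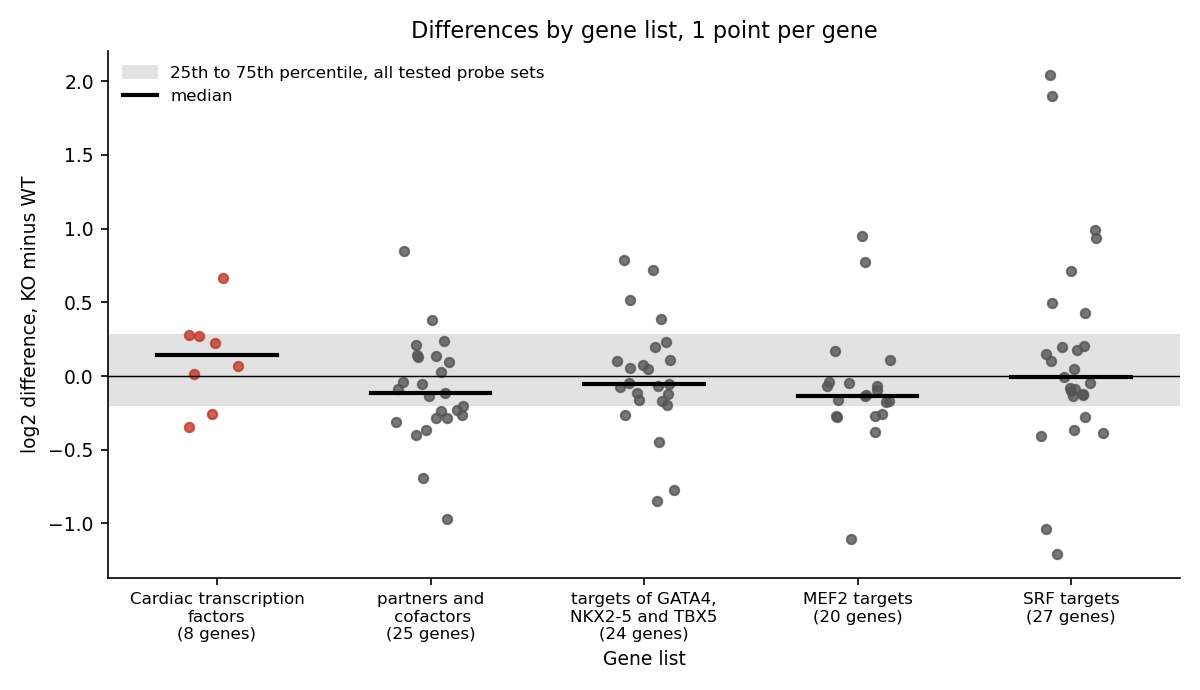
The log2 difference (KO minus WT) of each tested gene, 1 point per gene, for the 8 cardiac transcription factors (red) and for 4 lists of partners and targets (grey), with the median as a bar and the 25th to 75th percentile of all tested probe sets as a band. The medians are 0.15 for the factors and -0.11, -0.05, -0.13 and -0.00442 for the lists from left to right, and the SRF targets reach from -1.20 to 2.04.

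Several of the factors are also made outside heart muscle, Gata6 in smooth muscle, Mef2c in endothelium and smooth muscle, and Hand2 in fibroblasts and nerve. In whole ventricle, fewer cells of a type and less RNA per cell cannot be told apart. The 7 measured smooth muscle markers of 8 summed to 34452 and 25816 in KO, against 20048 and 19791 in WT, but without Acta2 to 15699 and 14900 in KO and 15913 and 16883 in WT. The 10 fibroblast markers summed to 89180 and 92692 in KO, against 65795 and 76773 in WT. Most of this sum was Dcn, with 58034 and 58177 in KO, against 42240 and 50324 in WT. Col1a1, Col1a2, Col3a1, Lum and Pdgfra were also higher in KO without overlap, whereas Tcf21, Dpt, Postn and Fn1 overlapped. The 9 endothelial markers measured, of 10, summed to 31787 and 28562 in KO and 38920 and 32230 in WT, and the 5 nerve markers, of 8, to 4030 and 3296 in KO and 4240 and 4213 in WT. The 7 adipocyte markers measured, of 9, summed to 6085 and 6530 in KO, against 6046 and 5460 in WT, with the lower KO sum barely above the higher WT sum. Lep and Cidea, the largest members, went opposite ways. Lep gave 1927 and 2409 in KO and 1480 and 1096 in WT, and Cidea 1315 and 1224 in KO and 2222 and 2076 in WT. Adipoq, a smaller member, was higher in KO, with 686 and 604 against 189 and 297 in WT, and Fabp4 overlapped. The 4 adipocyte markers tested had a median log2 difference of 0.37. The sums of the 9 immune cell markers overlapped, at 11348 and 9783 in KO and 10217 and 9860 in WT. Skeletal muscle markers summed to 31409 and 27090 in KO and 55810 and 38492 in WT. The lower KO sum came from Acta1, their largest member, at 19417 and 18373 in KO and 48309 and 31096 in WT. Pvalb, the next largest, went the other way, with 6744 and 3715 in KO and 3126 and 3063 in WT. Myh2 was below the floor on every array, and no marker of any list was at 0. The part of these cell types in the values of the factors was not tested.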

How the data were processed

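The authors deposited 1 scaled intensity per probe set and array, from biotin-labelled cRNA of mouse ventricle, per the labels' protocols. The software, summary method and genome build are not given in the sources used here. The trimmed mean, without 2% at each end, was between 1501.16 and 1501.24 on every array. The titles give each array's genotype, which set the groups. Gene names came from the platform annotation, updated through RefSeq gene identifiers, where 10839 of 10855 probe sets with 1 symbol matched.

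The 66 control probe sets were left out, as were probe sets with a mean under the 40th percentile (350.6). Signals below 110, the 20th percentile, were set to that floor before log2. The test was limma (version 3.58.1, R 4.3.3; lmFit, then eBayes) over 7453 probe sets, and a call needed a Benjamini-Hochberg adjusted p under 0.05. The steps were tested on simulated data with a common spread and known changes larger than the differences of the members. That check required the estimates to match the known changes and set no requirement on the calls. Exact permutation of 4 arrays in 2 groups has 0.333 as its smallest two-sided p and was not used.

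The members, the gene lists and the 14 alternatives were chosen with earlier results of these data known. Every member probe set is named, and of each list members past the threshold, or otherwise up to 4 genes of lowest unadjusted p. Mef2b, Nppb and Myl2 were added for context after their values were seen. In list counts the probe set of highest mean stands for a gene, members are left out, and some genes stand in more than 1 list. Promoter windows came from RefSeq and were searched over the 250 bases before each start.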

Additional observations from a re-analysis of the deposited data

How the results depend on the processing

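No member probe set passed under any of the 14 alternatives. Of 160 log2 differences of member probe sets under an alternative, 149 kept their sign and 11 turned, with a lowest limma adjusted p of 0.471. Many could not turn, since a change of filter, prior or block leaves the estimate as it is. Nor can the sign turn when an array is left out of groups without overlap. Beside leaving out an array, the turns were those of Hand2 after quantile normalization (-0.055) and median scaling (-0.033). When each array was left out, the log2 difference ran from -0.052 to 0.61 for Gata4, from -0.15 to 0.17 for Hand2, from -0.14 to 0.27 for Nkx2-5, and for Mef2c from -0.12 to 0.57 on 104590_at, from -0.018 to 0.66 on 104591_g_at and from -0.56 to 0.82 on 104592_i_at. The median over tested member probe sets then ran from -0.035, without KO replicate 2, to 0.43, without KO replicate 1. The count changed at least 1.5-fold without overlap ran from 1 to 5, the highest without KO replicate 1, where 1 KO array has to clear 2 WT arrays and 20.4% of all tested probe sets met the rule. It was 2 with no filter, which adds Gata6 93925_at, where 12% of all probe sets then tested met the rule. Over all probe sets, the count of calls was 0 with the floor at the 5th or 40th percentile, with no filter, without probe sets of cross-hybridizing suffixes and without each array, and 2, both of Esrra, with the filter at the 60th percentile and with the trend and robust prior. The setting without those suffixes removes the single call by construction, since that probe set, 102145_f_at, carries one. For the other settings the cause was not tested. Of the gene lists, 3 partners, 3 GATA4, NKX2-5 and TBX5 targets, 2 MEF2 targets and 7 SRF targets changed at least 1.5-fold without overlap with all arrays. These counts ran from 3 to 5, 2 to 5, 1 to 4 and 7 to 9 when each array was left out. The share of all tested probe sets meeting the rule also rose, from 11% with all arrays to between 18.6% and 20.4% with an array left out. The SRF target median ran from -0.036 to 0.057. The same sample numbers in KO and WT are not stated to pair the arrays, and deviations of KO and WT replicate 1 from their group means correlated at 0.011 over probe sets. With the replicate block the count of calls was 0 over all probe sets and 0 among the members. With 2 arrays a group, the intervals given were taken before any adjustment and are not limits of detection. Large differences also went without a call at the main settings. Examples are Esrra 103964_at (log2 -3.08, limma adjusted p = 0.179) and Acta2 (log2 2.04, limma adjusted p = 0.656). The lack of a call among the members therefore does not show that no member differs.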
